A study of Equus caballus with 4 samples.

Results

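The matrix metalloproteinases (MMP), the ADAM and ADAMTS proteinases and the tissue inhibitors of metalloproteinases (TIMP) were followed in equine satellite cells (ESC) exposed to β-hydroxy-β-methylbutyrate (HMB). Genes were taken by name: every non-control probe whose gene name was MMP, TIMP, ADAM or ADAMTS followed by a number. This gave 52 genes of the 24998 gene names on the horse array, read by 106 of its 43603 probes. ESC came from the semitendinosus muscle of 6-month-old colts and were grown in proliferation medium, then moved to differentiation medium with 2% horse serum. HMB was added after day 2 of differentiation for 24 h, and control ESC stayed in differentiation medium without HMB, so both groups were sampled on day 3. The sample labels give the HMB dose as 50 µg with no volume, while the study's methods give 50 µM. Each of 4 arrays on 1 slide carried an HMB-treated sample labelled with Cy5 and a control sample labelled with Cy3, as biological replicates 1 to 4. The titles name HMB for the Cy5 sample while the sample descriptions write GO-treated; the titles, which the study's methods match, were followed. The dyes were never exchanged, so a dye effect on a probe cannot be told apart from HMB. The cells were preplated to limit a possible contamination by fibroblasts, and which colt stands behind which array is not stated.

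MMPs are zinc proteinases that cut collagens, gelatin, proteoglycans and other matrix proteins, and most are secreted or anchored as inactive precursors. ADAMs sit in the membrane and release the outer parts of other membrane proteins, while the secreted ADAMTS enzymes trim proteoglycans and procollagens. TIMPs block these enzymes, and in skeletal muscle the balance bears on satellite cell migration, myoblast fusion and the repair of the basement membrane.

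Of the 52 genes, 24 (46.2%) had a probe bright enough to test, which required 1 of the channels to exceed background clearly on each of the 4 arrays, against 62.5% of all gene names. The other 28 were too dim: 18 were never well above background on any array in either channel, and 10 were so on some arrays. Values are log2 ratios of HMB-treated over control ESC, so that 1 is a doubling and a negative value is lower with HMB, and a gene is read by its brightest tested probe. With limma across all tested probes and a Benjamini-Hochberg adjusted p of at most 0.05, 7 of the 24 genes (29.2%) passed, against 22.4% of the 15614 genes tested. ADAMTS3 was higher with HMB, where 10.9% of all genes were, and TIMP2, TIMP3, ADAMTS1, ADAMTS8, ADAMTS14 and ADAM15 were lower, where 11.6% of all genes were. The share passing, 29.2%, is near that of all genes and is not a result about these families. The lower genes made up 6 of the 24, a larger share than 11.6%; ADAMTS8, counted among them, could enter the test only through the control channel, and no test of the families as a set was made. By probe, 53 of the 106 were tested and 20 passed (37.7%, against 22.8% of all tested probes), but 12 of the 20 read TIMP2 or TIMP3, most of them overlapping. The count of genes was 7 without array 1, 3 without array 2, 4 without array 3 and 5 without array 4. Of all tested probes, 17.6%, 9.36%, 9.97% and 18.2% passed with arrays 1, 2, 3 and 4 left out in turn. The median log2 ratio was -0.01 over the 24 genes and 0.02 over all genes tested, with 12 positive and 12 negative means among the 24. All 4 arrays had the same sign for 11 of the 24 genes, a share of 45.8% that was also that of all genes tested, and these 11 included the 7 that passed.

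**Figure D1:**
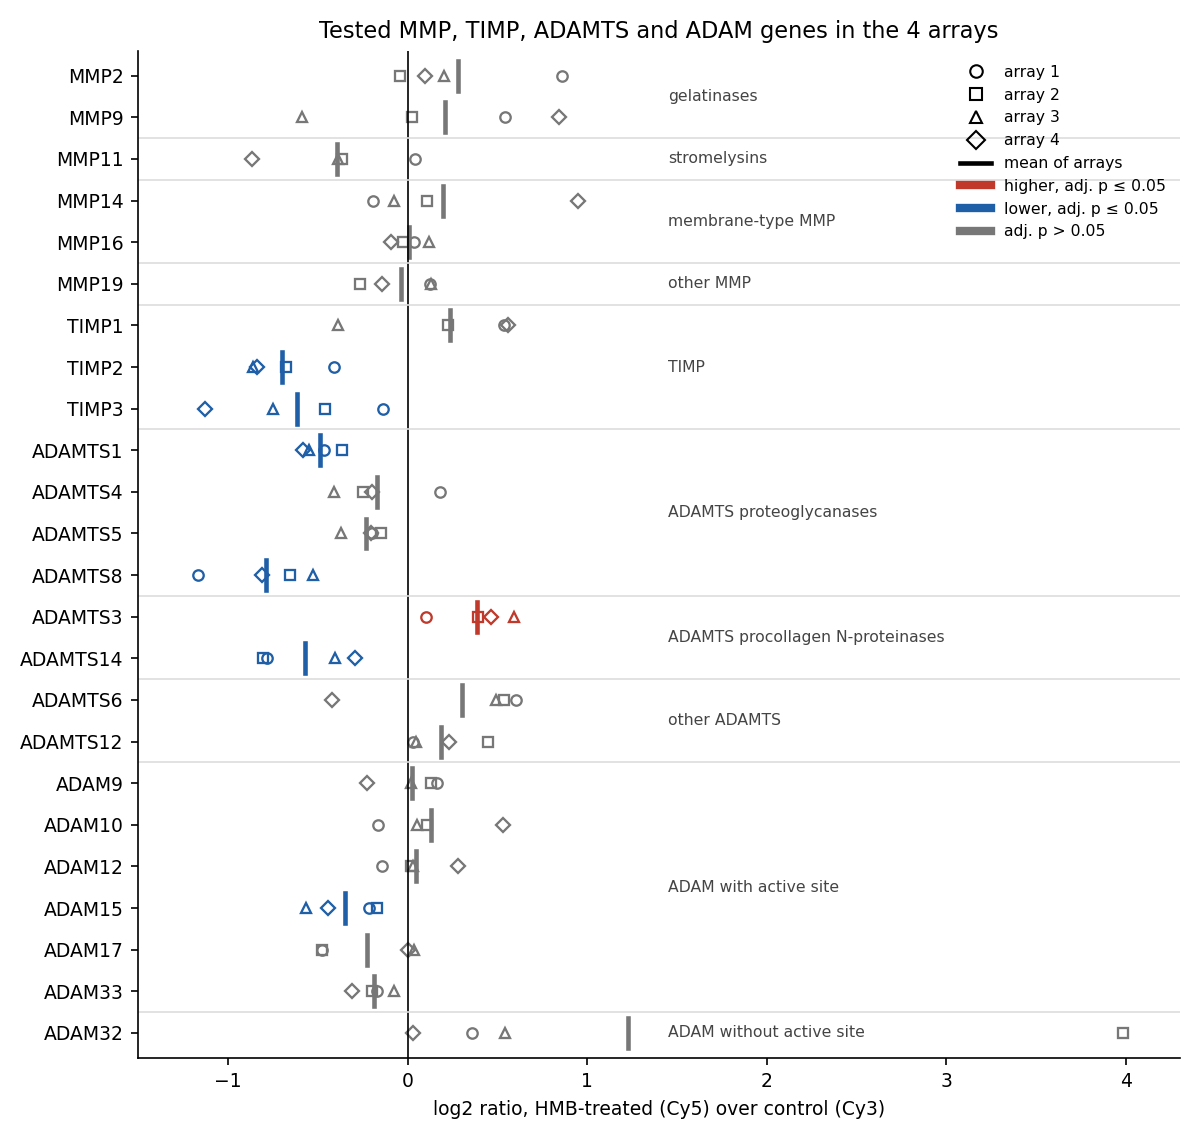
Log2 ratio of HMB-treated over control ESC on each of the 4 arrays (open symbols) and their mean (bar) for the 24 tested genes, grouped by role; colour marks an adjusted p of at most 0.05. TIMP2 and ADAMTS8 lie below 0 on every array, and ADAM32 has a single point at 3.98; without the lowess step the TIMP2 mean is 0.10.

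The label of the cells was checked against cell type markers. Of 10 myogenic markers, 7 had a probe under their name and all 7 were bright enough to test, among them the myogenic regulators MYF5, MYOD1 and MYOG, while PAX7, CDH15 and TTN had none. All 7 were called lower with HMB, where 11.6% of all genes were, with a median log2 ratio of -0.80. Without the lowess step (explained with TIMP2) 6 were lower and ACTC1 was higher, where 26.1% of all tested probes passed in either direction. With normexp correction, another background method, 6 were lower and the ACTC1 mean was 0.01, where 22.8% of all tested probes passed. MYF5 had log2 ratios of -0.82, -0.88, -1.17 and -1.15 on arrays 1 to 4, and MYH3, an embryonic myosin, had -0.51, -0.99, -1.38 and -1.57. Both were negative on every array, and array 1 was the closest to 0 for each. The limma mean was -1.01 for MYF5 (adjusted p = 0.001566) and -1.11 for MYH3 (adjusted p = 0.008462), and without lowess the MYH3 mean was -0.42 (0.04452). The summed signal of the 7 genes on arrays 1 to 4 was 254320, 248280, 300940 and 315700 in control and 219980, 159430, 167450 and 171880 in HMB-treated ESC, and the brightest was ACTC1, a sarcomeric actin. The sums were taken after the lowess step, on which the sign of ACTC1 depended, so they are no reading apart from the ratios.

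Of 8 fibroblast markers, 6 were tested and 2 were higher with HMB, where 10.9% of all genes were, or 4 without lowess and 3 with normexp. The 2 called as deposited were PDGFRA, a growth factor receptor, and FAP, a surface protease. PDGFRA had 1.09, 1.38, 1.46 and 2.19 on arrays 1 to 4, and FAP had a mean of 0.42. DCN (0.15), LUM (0.01), THY1 (-0.10) and FBLN1 (0.22) did not pass. PDGFRA was positive on every array and highest on array 4 (mean 1.53, limma adjusted p = 0.003577; 0.01847 for FAP), and its mean was 0.89 with normexp. The summed signal of the 6 genes was 83214, 78760, 86202 and 100400 in control and 108740, 88785, 92486 and 96835 in HMB-treated ESC, led by DCN. The mean of DCN depended on the dye step, at 0.15 as deposited, 0.87 without lowess (limma adjusted p = 0.0007914) and 0.355 with normexp (0.03254). COL1A1 and TCF7L2 had no probe under their names. Of 6 leukocyte and macrophage markers, CD14 and CD68 were tested and neither passed. Their summed signal was 5525, 4979, 4837 and 5634 in control and 6342, 5122, 4829 and 4990 in HMB-treated ESC, led by CD14. None of 5 endothelial markers and none of the 3 adipocyte markers on the array (of 4) was bright enough to test. The part that the lower myogenic markers and the 2 higher fibroblast markers had in the results for the proteinases and TIMPs was not tested. Fewer cells of a type and less RNA per cell cannot be told apart in such samples.

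**Figure D2:**
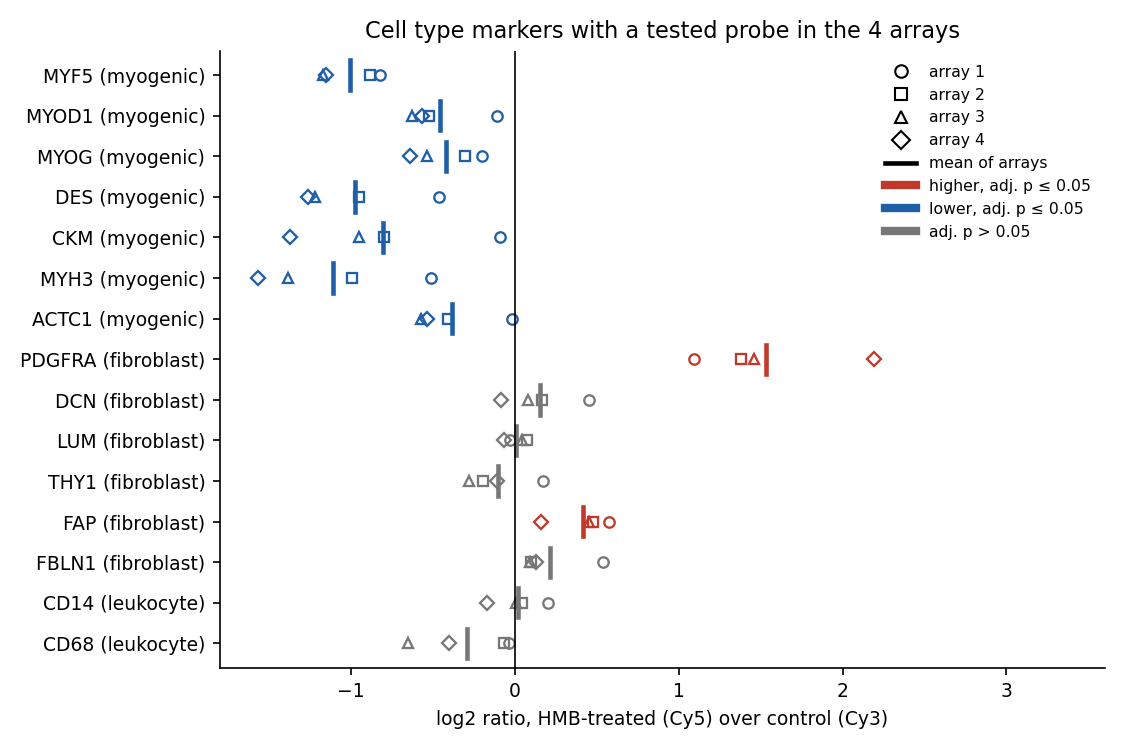
Log2 ratio of HMB-treated over control ESC on each array (open symbols) with the mean (bar) for the cell type markers with a tested probe. The 7 myogenic markers lie below 0 on all 4 arrays, with ACTC1 above 0 when the lowess step is left out, and PDGFRA lies above 1 on all 4.

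Among the inhibitors, 3 of 4 TIMP genes were tested and 2 were lower with HMB, where 11.6% of all genes were; without lowess TIMP3 alone was. TIMP2 binds MMP14 at the cell surface, where the complex serves to activate the MMP2 precursor, and free TIMP2 inhibits MMPs. Its 7 tested probes lie at 3 separate places of the gene, so the result in the deposited ratios does not rest on a single stretch. Without lowess only the brightest probe is reported here. The 2 probes below are shown because they read apart from the 5 overlapping ones that include the brightest. In EquCab1 they lie at chr11:2641586-2641645 and chr11:2633428-2633487, both on the plus strand, and no letter is in capitals because they share no stretch.
TIMP2 probe 1: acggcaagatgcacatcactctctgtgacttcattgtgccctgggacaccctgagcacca
TIMP2 probe 2: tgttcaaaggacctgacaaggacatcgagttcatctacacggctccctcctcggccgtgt

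TIMP2 had log2 ratios of -0.41, -0.67, -0.86 and -0.84 on arrays 1 to 4. It was lower with HMB on every array, least so on array 1. The mean was -0.70 ± 0.21 (SD, n = 4), with a 95% interval of -0.92 to -0.48, or 1.62-fold lower (limma adjusted p = 0.005411). All 7 probes passed, with means from -0.70 to -0.46; TIMP2 probe 1 had -0.47 (limma adjusted p = 0.03154) and probe 2 had -0.46 (0.03392). The direction depended on the dye normalisation: without the lowess step, which removes the trend of the ratio with signal, the mean was 0.10 (limma adjusted p = 0.2775), and with normexp and loess it was -0.43 (0.01231). TIMP2 was among the very bright genes, at a mean log2 signal of 16.2. The 428 tested probes with a log2 signal between 16 and 17 had a median log2 ratio of 0.08 as deposited and 0.92 without lowess, while the 1846 probes between 4 and 5 had 0.04 and -0.21. In both versions TIMP2 lay below the median of the probes of its brightness. Setting a gene against probes of its brightness repeats the trend removal that lowess makes, so the 2 versions are not separate readings. The comparison lends no support of its own to a lower TIMP2, and the source of the trend was not tested.

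**Figure D3:**
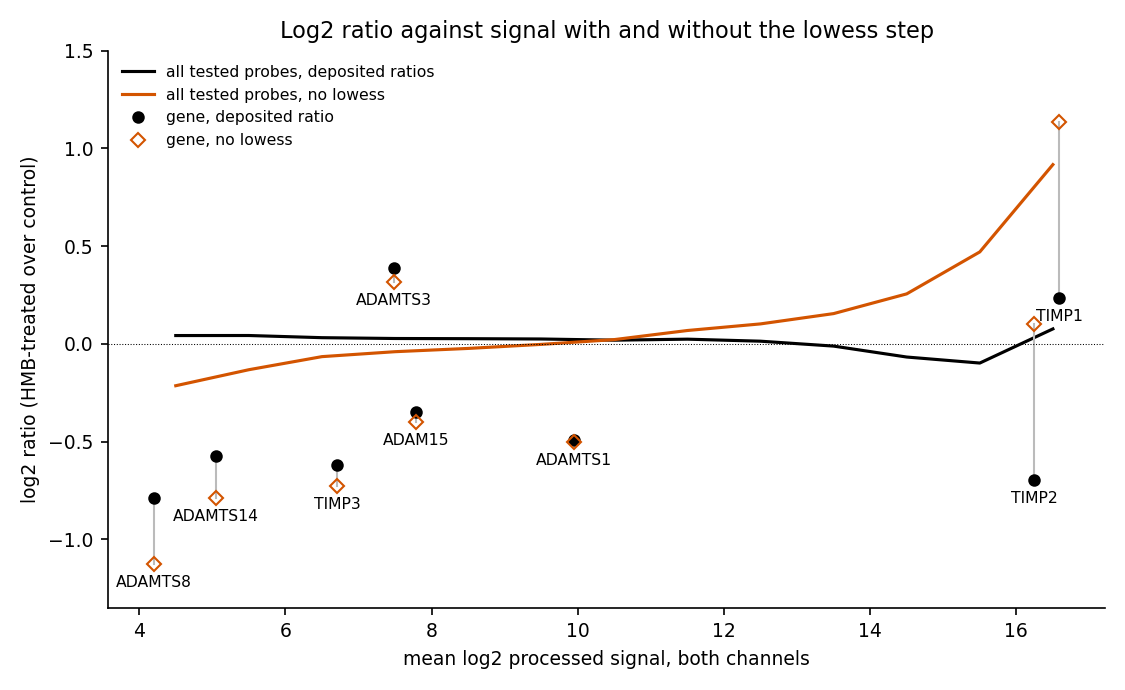
Log2 ratio of HMB-treated over control ESC against mean log2 signal of both channels, as deposited (black) and without lowess (orange), for named genes (symbols) and as the median of all tested probes in steps of 1 (lines). Without lowess the line of all probes rises to 0.92 at the bright end; TIMP2 moves from -0.70 to 0.10 and TIMP1 from 0.23 to 1.14.

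TIMP3 is bound to the matrix and also inhibits ADAM17 and the aggrecan-cutting ADAMTS enzymes. Its log2 ratios were -0.13, -0.46, -0.75 and -1.13 on arrays 1 to 4. All 4 were negative, spread from close to 0 on array 1 to the lowest on array 4. The mean was -0.62 ± 0.42 (SD, n = 4), or 1.53-fold lower (limma adjusted p = 0.03545). The 5 tested probes all passed, with means from -0.73 to -0.62, but they overlap at 1 place and share almost all their bases. The call was kept without array 1 and lost without array 2 (limma adjusted p = 0.07706), array 3 (0.1183) or array 4 (0.06318), and with normexp the mean was -0.42 (0.05554).

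TIMP1, a secreted inhibitor of most MMPs, had log2 ratios of 0.54, 0.23, -0.39 and 0.56 on arrays 1 to 4. Array 3 had the opposite sign to the others. The mean of 0.23 ± 0.44 (SD, n = 4) did not pass (limma adjusted p = 0.3295), and 0 of its 5 overlapping probes did, with means from 0.23 to 0.37. Without array 1 the mean was 0.13, without array 4 it was also 0.13, and without array 3 it was 0.44 (limma adjusted p = 0.0535). TIMP1 is as bright as TIMP2 is, at a log2 signal of 16.6, and with other dye treatment it did pass, at 1.14 without lowess (limma adjusted p = 0.002521) and at 0.58 with normexp (0.02002). TIMP4, the inhibitor best known from heart, was never well above background; it was called lower when dim probes were tested too, on signals at background.

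Of 18 MMP genes, 6 were tested and 0 passed with limma, where 22.4% of all genes did, so that 0 of 6 is no result about the MMPs; 1 had an unadjusted p below 0.05, and 0 passed when each probe was tested on its own 4 ratios. When dim probes were tested too, MMP7 was called lower, but it was never well above background. No collagenase (MMP1, MMP8, MMP13) and no matrilysin (MMP7, MMP26) was bright enough to test. The gelatinases, which cut denatured collagen and type IV collagen of the basement membrane, were both tested. MMP2 was read by 2 probes at separate places, shown here because MMP2 is the best-known muscle gelatinase and both probes came out positive without a call. They lie on the plus strand of EquCab1, and each is split over a longer stretch of the genome, at chr3:7659687-7663766 (4080 bases) and chr3:7652059-7652350 (292 bases); no capitals are used.
MMP2 probe 1: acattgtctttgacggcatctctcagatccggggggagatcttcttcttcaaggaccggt
MMP2 probe 2: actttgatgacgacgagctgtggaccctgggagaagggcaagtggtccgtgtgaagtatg

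MMP2 probe 1, the brighter, had log2 ratios of 0.86, -0.04, 0.20 and 0.10 on arrays 1 to 4, and probe 2 had 0.89, 0.10, 0.38 and 0.36. Array 1 was the highest for both probes, and the other arrays were close to 0 for probe 1. The means were 0.28 (limma adjusted p = 0.2171) and 0.43 (0.05243), and without array 1 the mean of probe 1 was 0.09. MMP9, the gelatinase of inflammatory and migrating cells, had 0.54, 0.03, -0.59 and 0.84, with array 3 on the other side of 0. Its mean of 0.21 ± 0.63 (SD, n = 4) did not pass (limma adjusted p = 0.532), and without array 4 it was -0.01.

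Of the membrane-type enzymes, MMP14, which activates the MMP2 precursor and cuts fibrillar collagen, had log2 ratios of -0.19, 0.11, -0.07 and 0.95. Array 4 stood above the others, which were close to 0. The mean of 0.20 ± 0.52 (SD, n = 4) did not pass (limma adjusted p = 0.4689), and it was -0.05 without array 4. Its second tested probe had -0.51, 0.13, -0.35 and 0.88, with a mean of 0.04 (limma adjusted p = 0.9111). MMP16, another membrane-type enzyme, had a mean of 0.01, which was -0.17 without lowess. MMP11, or stromelysin-3, which leaves the cell already cut to its active form by furin, had 0.04, -0.36, -0.39 and -0.87. Arrays 2 to 4 were negative and array 1 was close to 0. The mean was -0.39 ± 0.37 (SD, n = 4) and did not pass (limma adjusted p = 0.0886), and the mean ranged from -0.54 without array 1, where the adjusted p was 0.04506, to -0.24 without array 4 (0.1684); with normexp it was -0.23 (0.1399). It was the MMP gene with an unadjusted p below 0.05. MMP19 had a mean of -0.04, and without array 2 it was 0.04.

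MMP1, the interstitial collagenase, was named after its values were seen. It was well above background on 1 array in HMB-treated ESC and on none in control ESC, so it was not tested, and the log2 ratios of its brightest probe on arrays 1 to 4 were 1.53, 1.04, 1.97 and 2.44. None of the other 7 of its 8 probes was positive on all 4 arrays: 3 of the 4 that overlap the brightest by almost all their bases read 0 on every array, and another probe had -1.16 on array 2. The signals lay near background and no fold is given. MMP1 lies in a run of 8 MMP genes at chr7:9114630-9452738 in EquCab1, within 338 kb, with MMP7, MMP20, MMP27, MMP8, MMP3, MMP12 and MMP13. None of the 8 was bright enough to test.

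Of 15 ADAMTS genes on the array, 8 were tested, 3 were lower and 1 was higher, where 11.6% of all genes were lower and 10.9% higher; 1 of the 3, ADAMTS8, was tested through the control channel alone. The proteoglycanases, which cut aggrecan and versican, had 4 tested genes, and ADAMTS1 and ADAMTS8 passed. The means of ADAMTS1, ADAMTS4 and ADAMTS5, which were well above background in both channels, were negative, with that of ADAMTS5 (-0.23) in the middle.

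ADAMTS1, which cuts versican and aggrecan, had log2 ratios of -0.46, -0.37, -0.55 and -0.58 on arrays 1 to 4. The 4 arrays lay close together. The mean was -0.49 ± 0.10 (SD, n = 4), with a 95% interval of -0.65 to -0.33, or 1.40-fold lower (limma adjusted p = 0.005746). The call was kept whichever array was left out, with an adjusted p up to 0.03266 and means from -0.53 to -0.46.

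ADAMTS5, an aggrecanase that also clears versican around fusing myoblasts, lies next to ADAMTS1, at chr26:17469161-17571506 for both genes, 102 kb in EquCab1. Its log2 ratios were -0.20, -0.15, -0.37 and -0.20, negative on every array. The mean of -0.23 ± 0.10 (SD, n = 4) lay just outside the threshold (limma adjusted p = 0.05062), and inside it with normexp (0.0338), without lowess (0.04451) and when both channels had to be well above background (0.04875). It missed the threshold in the other settings, up to 0.2667 with separate channels and from 0.07679 to 0.2103 with 1 array left out. Its 3 tested probes had means from -0.23 to -0.16. ADAMTS4, the other main aggrecanase, had 0.18, -0.25, -0.41 and -0.20, with array 1 on the other side of 0, and did not pass (mean -0.17, limma adjusted p = 0.2737); the mean was -0.02 with normexp, -0.40 without lowess (0.06623), -0.09 without array 3 and -0.28 without array 1 (0.05674).

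ADAMTS8, a proteoglycanase with weak activity on aggrecan, had log2 ratios of -1.17, -0.66, -0.53 and -0.81 on arrays 1 to 4. It was well above background on all 4 arrays in control ESC and on none in HMB-treated ESC, so it could enter the test only through the group in which it was higher. With the HMB signal set at no less than the background limit it was at least 1.54-fold lower (limma adjusted p = 0.006613 on the measured ratios). With normexp, which draws dim ratios towards 0, the mean was -0.17 (limma adjusted p = 0.05127).

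ADAMTS3 and ADAMTS14 remove the N-propeptide of fibrillar procollagens, and ADAMTS3 also activates VEGF-C. Both were tested and both passed, in opposite directions. ADAMTS3 was read by 4 tested probes in 2 places of the gene. The 2 probes below are shown because they lie apart from the brightest probe and gave the higher ratios; capitals mark the 20 bases that they share, so they are not independent readings. In EquCab1 they lie on the minus strand, at chr3:36477432-36477491 and chr3:36477472-36477531.
ADAMTS3 probe 1: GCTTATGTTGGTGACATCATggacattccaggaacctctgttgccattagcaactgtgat
ADAMTS3 probe 2: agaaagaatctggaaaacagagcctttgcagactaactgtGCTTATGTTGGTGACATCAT

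The brightest ADAMTS3 probe had log2 ratios of 0.10, 0.39, 0.59 and 0.47 on arrays 1 to 4. All 4 were positive, with array 1 the closest to 0. The mean was 0.39 ± 0.21 (SD, n = 4), or 1.31-fold higher (limma adjusted p = 0.02894). Probe 1 had 0.21, 1.16, 0.57 and 1.08, and probe 2 had 0.52, 0.77, 0.35 and 1.23, both positive on every array. Their means were 0.76 (limma adjusted p = 0.02325) and 0.72 (0.01853). Probe 2 was well above background on 4 arrays in HMB-treated and on 1 in control ESC, so it entered the test only through the group in which it was higher, and its ratio lends no support of its own. Of the remaining probes, the one that overlaps the brightest had 0.37 and did not pass (0.08191); it was well above background on 3 arrays in control and 4 in HMB-treated ESC and so was also tested through HMB alone. Another, dim probe was not tested and had 0.33, 0.80, -0.35 and -0.07. The call of the brightest probe was kept without array 1 and lost without array 2 (limma adjusted p = 0.1013), array 3 (0.1124) or array 4 (0.07087).

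ADAMTS14 had log2 ratios of -0.78, -0.81, -0.40 and -0.29 on arrays 1 to 4. Arrays 1 and 2 were the lowest, and all 4 were negative. The HMB log2 signals on arrays 1 and 2 were 4.24 and 4.05, against 5.34 and 5.43 on arrays 3 and 4. The lowest HMB signals of any spot well above background were 3.91 on array 1 and 3.81 on array 2. The mean was -0.57 ± 0.26 (SD, n = 4), or 1.49-fold lower (limma adjusted p = 0.01524), and the call was lost without array 2 (0.05919). It was also lost with separate channels (limma adjusted p = 0.3768) and when dim probes were tested too (0.07776). With normexp the mean was -0.23 (0.01749). Of the other 7 ADAMTS genes, 2 were tested and 0 passed with limma, where 22.4% of all genes did. There were 0 at an unadjusted p below 0.05 (5921 of the 15614 genes tested had one) and 0 when each probe was tested on its own ratios. This is no result about these genes. ADAMTS12, which cuts cartilage oligomeric matrix protein, had 0.03, 0.45, 0.05 and 0.23 (mean 0.19, limma adjusted p = 0.1666), with 5 overlapping probes from 0.05 to 0.25, and a mean of 0.10 without array 2 and 0.08 without lowess. ADAMTS6 had 0.60, 0.54, 0.49 and -0.42, with array 4 alone below 0, a mean of 0.30 (0.2528), and 0.54 without array 4 (0.008285), but 0.11 without lowess (0.7066) and 0.10 with normexp (0.4188).

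**Figure D4:**
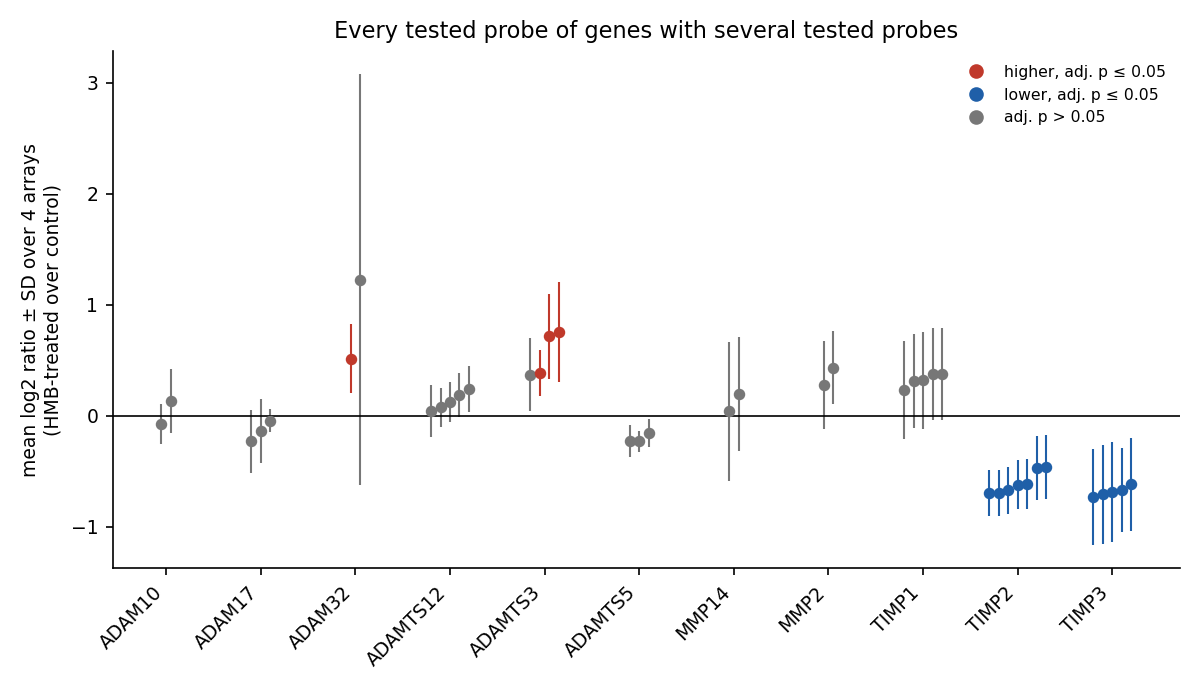
Mean log2 ratio of HMB-treated over control ESC with SD over the 4 arrays for every tested probe of the 11 genes with several tested probes; colour marks an adjusted p of at most 0.05. All 7 TIMP2 probes (with the brightest at 0.10 without lowess) and all 5 TIMP3 probes lie below 0, the 4 ADAMTS3 probes lie above it (2 of them tested only through the HMB channel), and the 2 ADAM10 probes lie on either side.

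Of 15 ADAM genes, 7 were tested and 1 passed, where 22.4% of all genes did. Of the 7 with a metalloproteinase active site, 6 were tested. ADAM15, a membrane proteinase whose disintegrin domain binds integrins, had log2 ratios of -0.21, -0.17, -0.57 and -0.44 on arrays 1 to 4. Arrays 3 and 4 were lower than arrays 1 and 2, and all were negative. The mean was -0.35 ± 0.19 (SD, n = 4), or 1.27-fold lower (limma adjusted p = 0.03316). The call was lost whichever array was left out, with an adjusted p of 0.05273 without array 1, 0.06595 without array 2, 0.1259 without array 3 and 0.07836 without array 4.

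The main sheddases did not pass. ADAM17, which releases TNF and ligands of the EGF receptor, had log2 ratios of -0.47, -0.47, 0.03 and 0.00. Arrays 1 and 2 were negative and arrays 3 and 4 were close to 0. The mean was -0.23 ± 0.28 (SD, n = 4, limma adjusted p = 0.1891), and its 3 probes had means from -0.23 to -0.04. Without array 1 the mean was -0.15, and without array 2 it was also -0.15. ADAM10, which sheds Notch and N-cadherin, had 2 probes with opposite signs, at 0.13 (limma adjusted p = 0.4333) and -0.08 (0.5368), and the first was 0.00 without array 4. ADAM12, or meltrin α, which is linked to myoblast fusion, had -0.14, 0.02, 0.03 and 0.28. The mean of 0.05, with a 95% interval of -0.15 to 0.24, did not pass (limma adjusted p = 0.7088) and was -0.01 without lowess and -0.03 without array 4. ADAM9, a widely expressed sheddase, had 0.16, 0.13, 0.02 and -0.22 and a mean of 0.02 (limma adjusted p = 0.8601), which was -0.01 without lowess and -0.02 with normexp. ADAM33 had a mean of -0.19 (limma adjusted p = 0.0837), and passed without lowess at -0.36 (0.02064).

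Of the 8 ADAM genes without an active site, several of them known from testis and brain, ADAM32 was the only gene bright enough to test. Its 2 probes adjoin on the plus strand of EquCab1, at chr27:5410432-5410491 and chr27:5410492-5410551, and are shown because they read neighbouring bases of the same transcript and yet differed in call; they share no bases, so none is in capitals.
ADAM32 probe 1: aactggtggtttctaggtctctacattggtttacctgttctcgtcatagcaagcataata
ADAM32 probe 2: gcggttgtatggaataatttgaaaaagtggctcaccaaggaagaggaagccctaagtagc

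ADAM32 probe 1, the brighter, had log2 ratios of 0.36, 3.98, 0.54 and 0.03 on arrays 1 to 4, and probe 2 had 0.17, 0.93, 0.46 and 0.50. Both were positive on every array and highest on array 2, where probe 1 stood far above its other values. On that array the control log2 signal of probe 1 was 4.54, against 6.15, 6.24 and 6.36 on arrays 1, 3 and 4, and the HMB log2 signal was 8.52, against 6.51, 6.78 and 6.39. The mean of probe 1 was 1.23 ± 1.85 (SD, n = 4; limma adjusted p = 0.2078), and 0.31 without array 2. Probe 2 had a mean of 0.52 and passed (limma adjusted p = 0.02869), but it was well above background on 3 arrays in control and 4 in HMB-treated ESC, so it was tested only through the group in which it was higher. ADAM32 lies with ADAM18, ADAM2 and ADAM9 at chr27:5410432-6060235, 650 kb in EquCab1, where ADAM9 and ADAM32 were tested and neither passed by its brightest probe.

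Beside the proteinases and TIMPs, a list of 57 genes of matrix turnover was read: activators and partners of the enzymes, other inhibitors, ADAMTS-like proteins, matrix substrates and shed membrane proteins. Of these, 42 were on the array, 32 were tested and 4 passed (2 higher, 2 lower), where 22.4% of all genes did. The median was 0.03, with 18 positive and 14 negative means. The count was 2 without array 1, 1 without array 2, 0 without array 3 (with 7 at an unadjusted limma p below 0.05) and 4 without array 4. Of all tested probes, 17.6%, 9.36%, 9.97% and 18.2% passed with those arrays left out in turn. Without lowess the count was 12 (8 higher, 4 lower), 3 of them among the 4 above, where 26.1% of all tested probes passed. It was 0 when each probe was tested on its own ratios, where 2.80% of all tested probes passed.

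TFPI2, a matrix-bound inhibitor of plasmin and other serine proteinases, had log2 ratios of 0.46, 0.46, 0.32 and 1.33 on arrays 1 to 4. All 4 were positive and array 4 stood above the rest. The mean was 0.64 ± 0.46 (SD, n = 4; limma adjusted p = 0.04001), and the call was lost without array 1 (0.07996), array 2 (0.08082) or array 3 (0.06438), and with normexp (0.06812). Without array 4 the mean was 0.41 (0.01767). It was the only tested gene of the 3 inhibitors on the array, since RECK and A2M were dim.

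Of 13 activators and partners on the array, 12 were tested and 2 passed, where 22.4% of all genes did. PCSK6, a furin-like convertase, had 0.92, 0.12, 0.57 and 1.11, positive on every array with array 2 the closest to 0. It was well above background on 3 arrays in control and 4 in HMB-treated ESC, so it too entered the test only through the group in which it was higher. The mean was 0.68 (limma adjusted p = 0.02896), and the call was lost without array 1 (0.09077), array 3 (0.0779) or array 4 (0.06836), with normexp (0.05269, mean 0.26) and without lowess (0.07093). TSPAN10, a tetraspanin that accompanies ADAM10, had -0.05, -0.32, -0.39 and -0.55, with array 1 close to 0. The mean was -0.33 (limma adjusted p = 0.04708), and the call was lost without array 2 (0.1412), array 3 (0.1595) or array 4 (0.1016), and with normexp (0.1332, mean -0.13). FURIN, which cuts the precursors of MMP14, MMP11 and many ADAMs, had a mean of 0.17, or -0.05 without lowess, and did not pass (limma adjusted p = 0.1291), nor did PLAUR, the urokinase receptor, at 0.30 (0.06563), or 0.19 without array 4.

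Of 14 matrix substrates on the array, 12 were tested and 1 was lower, where 11.6% of all genes were. Without lowess, where 26.1% of all tested probes passed, 5 were called higher and 2 lower. With normexp, where 22.8% did, 2 were higher and 1 lower. BGN and DCN were called higher in both settings, at 1.07 and 0.87 without lowess and at 0.47 and 0.355 with normexp. COL2A1 was called lower without lowess, at -0.37. Of its 6 probes 1 was tested, at log2 signals from 4.37 to 5.41, and through the HMB channel alone. Without lowess the median of all tested probes was -0.21 between log2 signals of 4 and 5, and -0.13 between 5 and 6. COL4A1, a chain of the basement membrane collagen that gelatinases cut, had -0.32, -0.38, -0.32 and -0.17, negative on every array. The mean was -0.30 ± 0.09 (SD, n = 4), or 1.23-fold lower (limma adjusted p = 0.02297), and the call was lost without array 1 (0.05494), array 2 (0.1221) or array 3 (0.096), and when the 6 tested probes of the gene were averaged (0.1855, mean -0.16). Of the 12, 8 had a negative mean, but 5 did without lowess, where the median moved from -0.15 to 0.13. FN1, COL1A2 and COL3A1, all very bright, had means of -0.41, -0.20 and -0.21 and did not pass. Without lowess they were called higher, at 0.40, 0.81 and 0.70, while without array 1 FN1 was called lower. Versican (VCAN), the substrate of ADAMTS1 and ADAMTS5, had 0.25, 0.02, 0.01 and -0.63 and a mean of -0.09 (limma adjusted p = 0.6791), which was 0.02 without lowess and 0.09 without array 4. Of 6 tested genes for shed membrane proteins, 0 passed with limma, where 22.4% of all genes did, and 3 had an unadjusted p below 0.05 (5921 of the 15614 genes did). Tested on its own ratios 0 passed, and this is no result about these genes. Without lowess CD44 was called higher (0.46, limma adjusted p = 0.005445) and SDC4 lower (-0.30, 0.02599). With normexp SDC4 (-0.21, 0.04119) and APP (-0.32, 0.03929) were called lower, and without array 4 CD44 and SDC4 passed. Of 4 ADAMTS-like genes on the array, ADAMTSL4 was tested, with a mean of 0.05 (limma adjusted p = 0.8114), which was -0.03 without lowess and -0.12 without array 1.

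The calls differed in how far they depended on the processing. ADAMTS1 and TIMP2 were called whichever array was left out and when the channels were compared as separate samples, and of these ADAMTS1 was also called both with normexp and without lowess. ADAMTS8 was tested only through the control channel, so its calls are not read as a sign of stability, and it was lost with normexp and when dim probes were tested too (limma adjusted p = 0.05282). Tested on its own 4 ratios with no pooling over probes, ADAMTS1 had an adjusted p of 0.0546. In that test 0 genes of the families passed, with 8 at an unadjusted p below 0.05, where 2.80% of all tested probes passed.

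**Figure D5:**
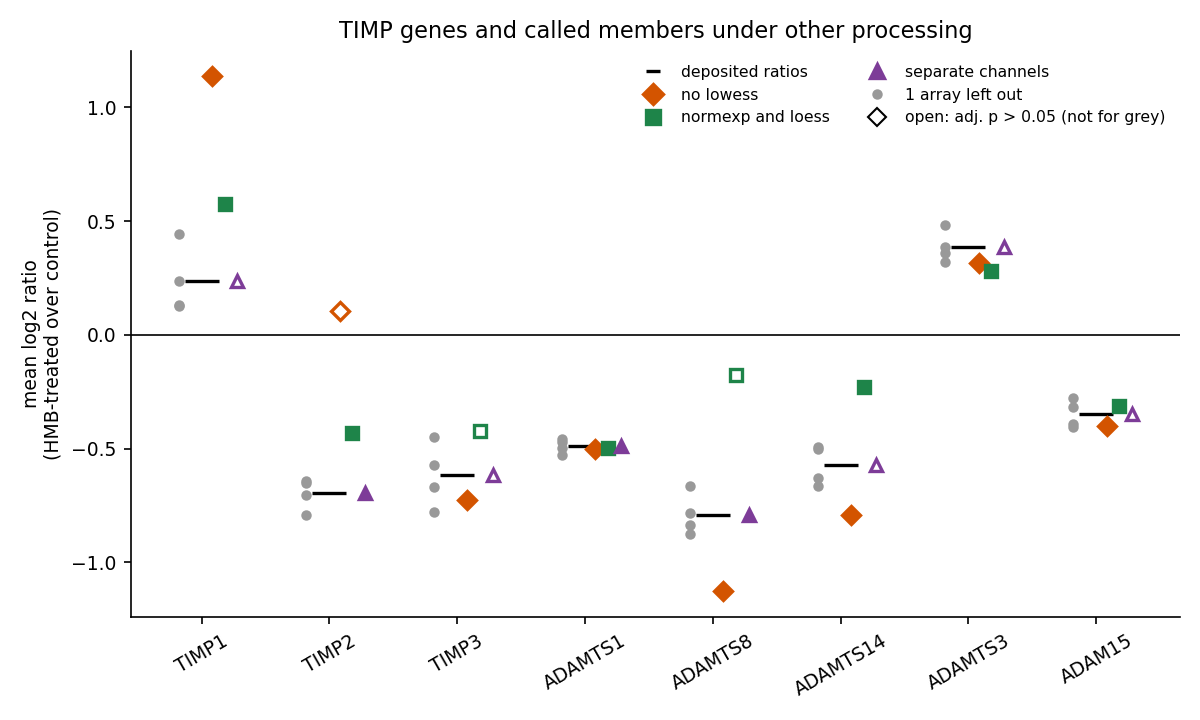
Mean log2 ratio of HMB-treated over control ESC for the TIMP genes and the genes that passed, as deposited (black bar), without lowess, with normexp and loess, and with separate channels (filled where the adjusted p is at most 0.05), and with 1 array left out (grey). TIMP2 moves from -0.70 to 0.10 without lowess, and ADAMTS1 stays between -0.53 and -0.46.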

How the data were processed

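Total RNA of HMB-treated (Cy5) and control (Cy3) ESC was read on 4 Agilent 2-colour horse arrays. The authors used Feature Extraction with linear and lowess dye normalisation; its version is 10.10.1.1 per the file headers, and the paper names another. The deposited values are log10 ratios of Cy5 over Cy3, and per the file headers the signals are an intensity in each channel. The deposited series table equalled the log10 ratio of the scanner files. Ratios were multiplied by 3.32 to give log2. Control spots and spots marked non-uniform or as population outliers (11 to 32 an array) were dropped, and repeated spots averaged per probe. Testing required at least 3 values, and either Cy3 or Cy5 well above background throughout: 27384 of 43603 probes met this. The ratios were tested against 0, two-sided, with limma 3.58.1 (R 4.3.3), with Benjamini-Hochberg adjustment over all tested probes; 6257 probes (22.8%) passed, 3071 higher and 3186 lower. Tables and figures were made with Python 3.11.15, pandas 2.3.3 and matplotlib 3.10.9. The fit was tested on simulated data. Median signal over background was 3.16 to 3.82 in Cy3 and 4.68 to 5.85 in Cy5, and 0 spots were saturated. The number of arrays limits the precision.

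Genes were named when they passed, were the brightest tested member of a role class, had probes that differed in sign or call, were on a fixed list (MMP2, MMP9, MMP14, TIMP1 to TIMP4, ADAM10, ADAM12, ADAM17, ADAMTS1, ADAMTS5), or were called in the turnover list; further genes are given as values. The members and lists were chosen with earlier results of these data known. Of 63 RefSeq symbols of the 4 families, 51 were on the array, and all 25 member probes whose accession RefSeq names had the same symbol there. Probe sequences and EquCab1 positions are those of the deposited array files. The alternatives were normexp correction (offset 50) with loess, no lowess, a test of each probe on its own ratios, a robust prior with an intensity trend, the channels as separate samples, no filter and a stricter filter on dim probes, marked spots kept, the mean of a gene's probes, and each array left out. Protein and promoter sequences were not at hand, so their motifs were not searched.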

Additional observations from a re-analysis of the deposited data

Results flagged for a closer look

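The results checked were the tested members, the turnover genes re-run in every setting and the tested markers, 47 in all. Each was checked by Dixon's criterion for an array far from the others. The criterion is the gap to the nearest array, as a share of the range of the 4 arrays. Chance gives such an array in about 1 of 20, and 4 results had one. The log2 ratio of ADAM32 was 3.98 on array 2, where the nearest was 0.54 and the gap was 0.871 of the range. The log2 ratio of ADAMTS6 was -0.42 on array 4, where the nearest was 0.49 and the gap was 0.894 of the range. The log2 ratio of TFPI2 was 1.33 on array 4, where the nearest was 0.46 and the gap was 0.856 of the range. The log2 ratio of FBLN1, a fibroblast marker, was 0.54 on array 1, where the nearest was 0.13 and the gap was 0.918 of the range.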

How the results depend on the processing

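Several settings change the test and not the mean, and the called genes have 1 sign on all arrays, so for them signs are informative only for the dye and background steps and the averaging of probes. Among the 7 called genes TIMP2 changed sign. Calls are not tallied over the settings, because the genes were grouped by their call. ADAMTS8, PCSK6, COL2A1 and RHBDF2 were also tested through 1 channel alone.

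Tested on each probe's own ratios, the counts were 0 members (8 at an unadjusted p below 0.05; limma gave 7), 0 turnover genes (3 at an unadjusted p below 0.05; limma gave 4) and 768 probes. With separate channels they were 3 members, 0 turnover genes (5 at an unadjusted p below 0.05) and 2226 probes, 666 higher and 1560 lower (29.9% higher, against 49.1%). Without the filter on dim probes 5 members passed, with 2 turnover genes and 3690 probes. Of the 5, 2 were called before (ADAMTS1, TIMP2), and ADAM11, MMP7 and TIMP4 were dim. Without lowess, 12 turnover genes (8 higher, 4 lower) and 7143 probes passed. With 1 array left out, members ranged from 3 to 7, turnover genes from 0 to 4 and probes from 2564 to 4981.

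Among the members and the turnover genes re-run in every setting, signs changed without lowess for TIMP2 (0.1026), ADAM9 (-0.0124), ADAM12 (-0.0089), MMP16 (-0.1711), FURIN (-0.0547), VCAN (0.0184) and ADAMTSL4 (-0.0338), and with normexp for ADAM9 (-0.0186). Other genes whose sign changed were FN1 (0.40), COL1A2 (0.81), COL3A1 (0.70) and ACTC1 (0.64) without lowess, all called higher there, and ACTC1 (0.01), LUM (-0.04), CD14 (-0.03), COL1A2 (0.17) and COL3A1 (0.10) with normexp; RHBDF2, COL4A2 and SDC1 also changed without lowess, and COL4A2 with normexp, with no call. With 1 array left out they changed for ADAM9 (from -0.024 without array 1, with a negative value also without array 2, to 0.1053), for ADAM10 (-0.0004 without array 4, up to 0.2313), ADAM12 (-0.0309 without array 4, up to 0.1089), MMP9 (-0.0059 without array 4, up to 0.471), MMP14 (-0.0514 without array 4, up to 0.3287), MMP16 (-0.0273 without array 3, -0.0002 without array 1, up to 0.0439), MMP19 (0.038 without array 2, down to -0.0934), VCAN (0.0919 without array 4, down to -0.2023) and ADAMTSL4 (-0.1195 without array 1, up to 0.1729). The cause was not tested. Of the genes re-run in every setting, ADAMTS8 and PCSK6 had no value when both channels had to be well above background. With 4 arrays and no dye exchange, dye effects cannot be told apart from HMB, and dim probes give ratios that depend on the background step.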
